A study of Mus musculus with 2 samples.

Results

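The probes described here read gasdermins and inflammasome genes of the mouse, a set of 10 names that holds the gasdermin C genes Gsdmc, Gsdmc2, Gsdmc3 and Gsdmc4, the gasdermins Gsdmd and Gsdma, the caspases Casp1 and Casp4, the adaptor Pycard and the sensor Nlrp6. The members were taken by the gene name printed on the array, and the names themselves were chosen by their measured ratio between the diets in these same arrays, so their ratios are given as a description with no test. By that rule 9 genes of 27617 gene or transcript names were found, with 12 of 41174 probes, and Gsdmc4 had no probe under its name. All 12 probes were above background in both diets on both arrays, and none of their spots was left out. The study compared total RNA of the small intestine of C57BL/6 mice, 6 to 8 weeks old, kept on 2 diets. FAF mice ate a diet free of food antigens, made with amino acids, for up to 5 generations. Conv mice ate a conventional chow (LASQCdietRod16, LASvendi). The labels name both specific pathogen-free (SPF) and germ-free (GF) mice without saying which gave this RNA, and they do not say whether a sample is 1 animal or a pool.

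One RNA sample of each diet was hybridised on 2 two-colour arrays with the dyes exchanged, so that FAF RNA carried Cy5 on one array and Cy3 on the other. The arrays are technical repeats of 1 RNA pair: there are no biological replicates, and no p-value can be given. Each gene is given as the log2 ratio of FAF over Conv, averaged over both arrays, with ± for the distance of either array from that mean. Intensities are per-channel brightness after normalisation, in arbitrary units. A gene was called past the rule of size when the mean of both arrays came to 2-fold or more, with 1.5-fold or more the same way on each. In bulk tissue, fewer cells of a type and less RNA per cell cannot be told apart.

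Gasdermins are proteins whose amino-terminal part, once freed by cleavage, oligomerises into pores in the plasma membrane, which can end in the lytic cell death called pyroptosis. Inflammasomes are assemblies in which a sensor such as NLRP6 recruits caspase-1 through the adaptor ASC, encoded by Pycard, and active caspase-1 cleaves gasdermin D and the precursors of the cytokines IL-1β and IL-18. In the mouse intestine, gasdermin C transcripts are made by epithelial cells and are known to be induced by type 2 cytokines during worm infection.

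The gasdermin C genes are close copies that lie side by side, so how far the array separates them depends on the probe sequences. They are shown 5′ to 3′, with capitals for exact runs of 10 or more bases shared with another probe of the set.
Gsdmc: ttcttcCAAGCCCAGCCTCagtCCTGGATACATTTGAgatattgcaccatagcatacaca
Gsdmc2: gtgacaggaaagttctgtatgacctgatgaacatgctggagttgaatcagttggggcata
Gsdmc3: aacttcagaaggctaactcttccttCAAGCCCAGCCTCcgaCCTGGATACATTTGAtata
The array files place them on the minus strand of mm9 at chr15:63608169-63608228 for Gsdmc, chr15:63657825-63658375 for Gsdmc2 and chr15:63689822-63689881 for Gsdmc3. The Gsdmc2 interval covers 551 positions for a probe of 60 bases, so its ends lie apart on the genome. The Gsdmc and Gsdmc3 probes share 28 bases in capitals, and their best local alignment has 36 identical bases in 41 columns with no gap. The Gsdmc2 probe shares no such run with either, its best alignment being 8 of 10 columns with Gsdmc and 12 of 15 columns with Gsdmc3. None of the 3 shares a run of 20 bases with any other probe of the array. Cross-hybridisation of Gsdmc and Gsdmc3 transcripts, and of Gsdmc4 transcripts with any of these probes, was not tested, so the split between the copies is uncertain.

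The gasdermin C genes were lower in FAF intestine, each by about the same factor on both arrays. Gsdmc had normalised intensities of 688 and 746 in FAF RNA, against 1811 and 1865 in Conv RNA. Its log2 ratio was -1.36 ± 0.04, so that the FAF level was 39% of the Conv level. Gsdmc3 had 631 and 648 in FAF RNA, against 1662 and 1571 in Conv RNA, a log2 ratio of -1.34 ± 0.06. For both genes every FAF value lay below every Conv value. Such a gap between diets is no rarity on these arrays: 67.0% of the 25440 measured probes had intensities that did not overlap between the diets, in either direction.

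Gsdmc2, whose probe has the sequence unlike the others, had 256 and 254 in FAF RNA, against 607 and 622 in Conv RNA. Its log2 ratio was -1.27 ± 0.02, a level in FAF RNA of 41.5% of that in Conv RNA. The 3 genes differed from one another by at most 0.09 in mean log2 ratio. The log2 ratio of Gsdmc2 was above that of Gsdmc3 by 0.15 on the array with FAF in Cy5 and below it on the other array, a difference of -0.01, so the arrays did not order these copies. All 3 passed the rule of size in the lower direction, as did 0.880% of all 17162 measured genes, and no member passed in the higher direction, in which 1.53% of all genes passed. Counted from the lowest ratio, Gsdmc stood 56th, Gsdmc3 61st and Gsdmc2 70th. These ranks describe ratios that chose the members, and nothing is read from them.

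**Figure D1:**
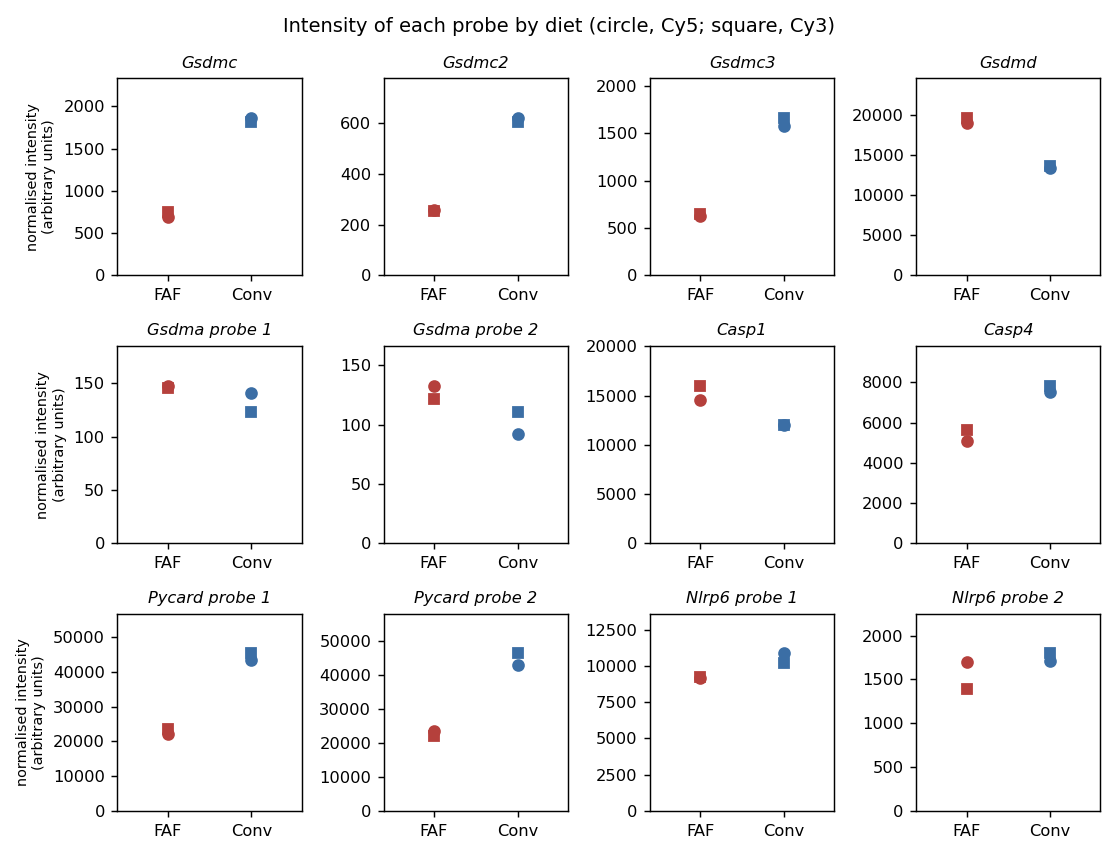
Normalised intensity of each gasdermin and inflammasome probe in FAF RNA (red, left) and Conv RNA (blue, right), in arbitrary units on axes that start at 0, with circles for Cy5 and squares for Cy3. The Gsdmc probe sits at 688 and 746 in FAF RNA and at 1811 and 1865 in Conv RNA. In all 12 panels the diets do not overlap, as was so for 67.0% of the 25440 measured probes of the arrays.

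Markers of the epithelium, the cells that make gasdermin C, differed in both directions. All 16 markers of small intestine epithelium were measured, 10 with log2 ratios above 0 and 6 below, with a median of 0.22 and a range from -0.36 to 2.02. Of these, 4 passed the rule of size in the higher direction and 0 in the lower. Their summed intensity ran from 1068212 to 1092491 in FAF RNA and from 667151 to 806524 in Conv RNA. Fabp1, a fatty acid carrier of enterocytes, had a log2 ratio of 2.02 ± 0.14, and Sis, the brush border enzyme sucrase-isomaltase, one of 1.70 ± 0.07. Most of the gap in the sum lay in these and in Lct, picked with its values in view. Fabp1 had 105399 and 142681 in FAF RNA, against 23489 and 38840 in Conv RNA. Sis had 144066 and 171965, against 42417 and 55616, and Lct 137016 and 149464, against 37120 and 58192. Epcam and Cdh1, adhesion molecules of epithelial cells picked here with their values in view, had log2 ratios of 0.10 ± 0.10 and 0.00 ± 0.15. The lowest ratios, picked in the same way, were those of the epithelial keratins Krt18 at -0.36 ± 0.05, Krt19 at -0.33 ± 0.13 and Krt8 at -0.22 ± 0.37. The part of the epithelial share in the gasdermin C ratios was not tested.

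The other gasdermins did not share the lower level of the C genes. Gsdmd, the substrate of caspase-1 and caspase-11 that opens pores in pyroptosis, is read by 10 spots of 1 probe at chr15:75697536-75697595 on the plus strand (mm9). It is printed as the probe with the most repeated reading of the set.
Gsdmd: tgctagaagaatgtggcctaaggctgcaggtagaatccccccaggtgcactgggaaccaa
It had normalised intensities of 19104 and 19695 in FAF RNA, against 13716 and 13447 in Conv RNA. The log2 ratio was 0.51 ± 0.04, a level in FAF RNA of 143% of that in Conv RNA, with an SD over the 10 spots of 0.0442 on the array with FAF in Cy5 and 0.0345 on the other. Both FAF values were above both Conv values, yet the gene stayed short of the rule of size, and 5.88% of all measured genes had a ratio as high or higher. Set against Gsdmc, the log2 ratio of Gsdmd was higher by 1.87 on each array.

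Gsdma, a gasdermin known from skin and upper digestive tract, was dim. Its probe 1 at chr11:98537914-98537973 had 148 and 146 in FAF RNA, against 123 and 141 in Conv RNA, a log2 ratio of 0.16 ± 0.10. Its probe 2 at chr11:98537811-98537870 had 133 and 122 in FAF RNA, against 111 and 92.3 in Conv RNA, a log2 ratio of 0.33 ± 0.07. The lowest normalised intensity of any probe well above background was 69.4, and the offset of 50 added in background correction draws the ratios of such dim probes towards 0. Of the squamous epithelium markers 5 of 10 were measured and none passed the rule of size, Lor at 0.15 ± 0.06 and Krt13 at -0.14 ± 0.04 being farthest from 0. Their median was -0.01, and their sum ran from 763 to 770 in FAF RNA and from 727 to 815 in Conv RNA. Among further gasdermins only Gsdme, a pore former cleaved by caspase-3, was measured, with 6012 and 6616 in FAF RNA, against 5255 and 5071 in Conv RNA, a log2 ratio of 0.29 ± 0.09. Gsdma2 and Gsdmcl1 were not well above background.

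The inflammatory caspases, neighbours on chromosome 9, pointed in opposite directions. Their probes are printed to show that they share no run of 10 bases.
Casp1: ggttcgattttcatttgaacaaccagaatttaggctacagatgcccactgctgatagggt
Casp4: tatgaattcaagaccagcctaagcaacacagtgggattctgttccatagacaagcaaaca
Casp1 encodes caspase-1, the protease activated on inflammasomes, and its probe is placed at chr9:5306226-5306728 on the plus strand of mm9. It had 14545 and 16020 in FAF RNA, against 12049 and 11990 in Conv RNA, a log2 ratio of 0.34 ± 0.07. Casp4 encodes caspase-11, the mouse protease that binds intracellular lipopolysaccharide and cleaves gasdermin D, and its probe is at chr9:5336645-5336704 on the plus strand. It had 5065 and 5606 in FAF RNA, against 7836 and 7510 in Conv RNA, a log2 ratio of -0.53 ± 0.10. The diets did not overlap for either gene, with FAF above Conv for Casp1 and below Conv for Casp4. The log2 ratio of Casp1 exceeded that of Casp4 by 0.90 on the array with FAF in Cy5 and by 0.84 on the other. Neither gene reached 2-fold: the FAF level was 127% of the Conv level for Casp1 and 69.5% for Casp4.

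Pycard encodes ASC, the adaptor that joins sensors to caspase-1 through its pyrin and caspase recruitment domains. Its probes cover nearly the same stretch, with the shared 40 bases in capitals, so they are not independent readings.
Pycard probe 1: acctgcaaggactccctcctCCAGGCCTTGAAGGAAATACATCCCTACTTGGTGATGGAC
Pycard probe 2: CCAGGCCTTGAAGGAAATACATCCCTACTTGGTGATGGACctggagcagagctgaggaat
Probe 1 lies at chr7:135136241-135136300 and probe 2 at chr7:135136221-135136280, both on the minus strand of mm9. Probe 1 had 22057 and 23661 in FAF RNA, against 45295 and 43353 in Conv RNA, a log2 ratio of -0.96 ± 0.08. Probe 2 had 23628 and 21953 in FAF RNA, against 46352 and 43066 in Conv RNA, a log2 ratio of -0.97 ± 0.00. On both probes the diets were far apart, with the FAF level at 51.6% and 51% of the Conv level. Pycard fell just short of the 2-fold mean of the rule of size, its folds being 1.94 and 1.96. Gsdmc2, the gasdermin C gene closest to that limit with the offset of 50, lay inside it at 2.41-fold. With an offset of 10 it was the farthest, at a log2 ratio of -1.44, against -1.42 for Gsdmc and -1.40 for Gsdmc3. A ratio as low as that of Pycard or lower was found for 1.05% of all measured genes.

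Nlrp6, an intestinal sensor of the NOD-like receptor family, differed least among the members that were lower in FAF RNA. Probe 1 at chr7:148114024-148114083 had 9141 and 9245 in FAF RNA, against 10225 and 10864 in Conv RNA, a log2 ratio of -0.20 ± 0.04. Probe 2 at chr7:148114108-148114167 had 1702 and 1391 in FAF RNA, against 1797 and 1708 in Conv RNA, a log2 ratio of -0.19 ± 0.11. The FAF values were below the Conv values on both probes, on probe 2 by a margin of only 1702 against 1708.

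**Figure D2:**
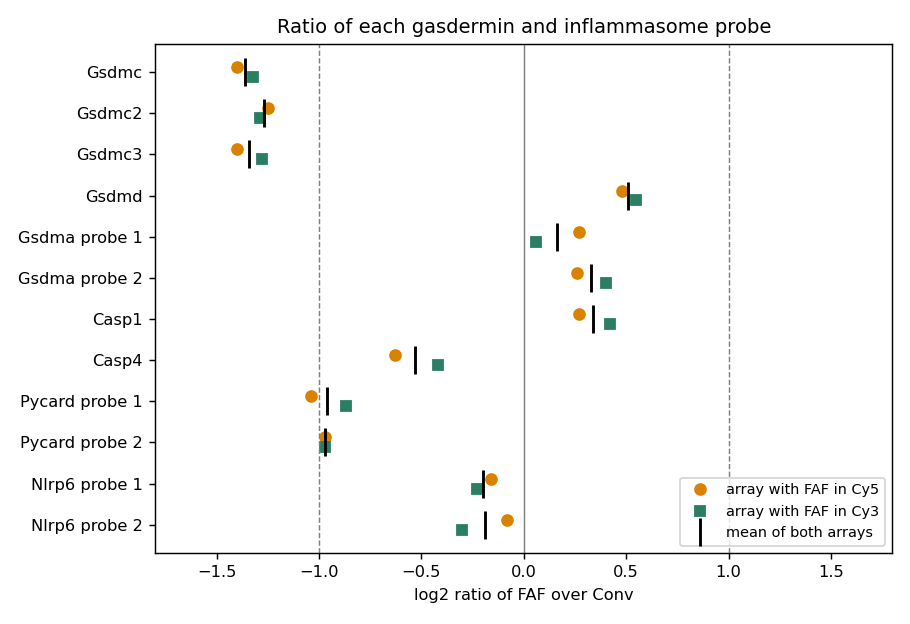
Log2 ratio of FAF over Conv for each of the 12 probes on the array with FAF in Cy5 (circles) and the array with FAF in Cy3 (squares), with a bar at the mean of both and dashed lines at 2-fold. The gasdermin C probes lie between -1.40 and -1.25, the Pycard probes around -0.97, and Gsdmd at 0.48 and 0.55.

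All 12 probes kept the same sign on both arrays, and no array was farther than 0.11 from its probe's mean. Over all measured genes the median of that distance was 0.06, and ratios correlated between the arrays with a Pearson coefficient of 0.90. The share of all probes with the same sign is not given here, so nothing is read from the count of 12. Of the 9 genes, 6 had ratios below 0 and 3 above, with a median log2 ratio of -0.53, beside a median of 0.00 and 50.2% below 0 over all measured genes. The gasdermin C genes had a median of -1.34. The other 6 genes spread from -0.96 for Pycard to 0.51 for Gsdmd, a gap between these partners of one pathway of 1.52 on the array with FAF in Cy5 and 1.42 on the other.

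**Figure D3:**
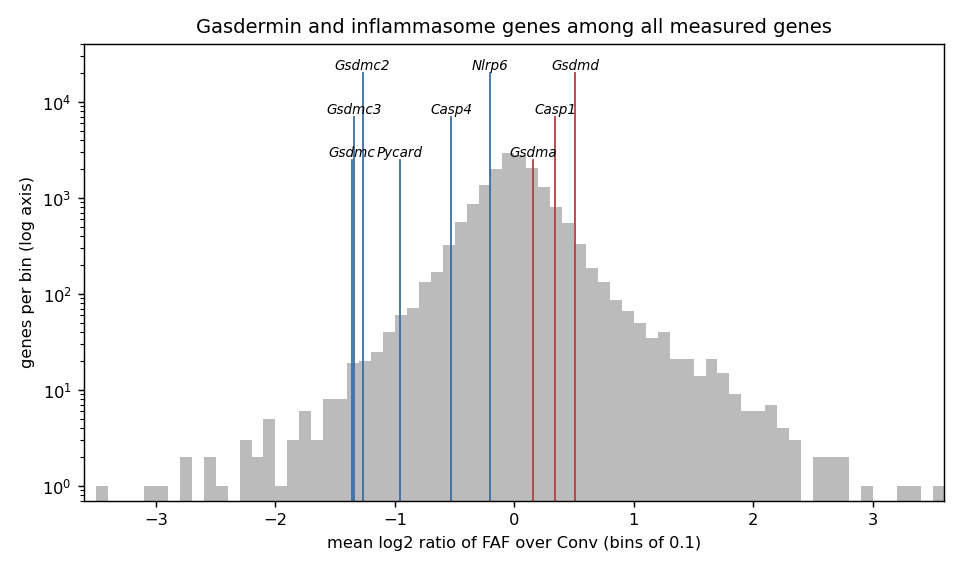
Number of measured genes per bin of 0.1 in mean log2 ratio of FAF over Conv (grey, log axis), with lines at the 9 gasdermin and inflammasome genes, blue where the ratio is below 0 and red where it is above. Gsdmc, Gsdmc3 and Gsdmc2 stand in the lower tail at -1.36, -1.34 and -1.27, Pycard at -0.96, and Gsdmd at 0.51 on the other side.

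None of the measured genes in the lists of related genes passed the rule of size in either direction. Over all measured genes 1.53% passed in the higher direction and 0.880% in the lower. With shares that low, nothing is read from the count in these lists. Of 16 inflammasome sensors on the array 11 were measured, 8 with ratios above 0 and 3 below, with a median log2 ratio of 0.15. Naip5, which recognises bacterial flagellin in mice, had 9122 and 9442 in FAF RNA, against 4741 and 4705 in Conv RNA. Its log2 ratio was 0.97 ± 0.03, just under 2-fold and nearly the size of that of Pycard with the opposite sign. Its paralog Naip6 had a log2 ratio of 0.58 ± 0.06 on the probe used and 0.29 on another, and readings of such close copies are uncertain. Nlrp1a, Nlrp10, Nlrp12, Nlrc5 and Aim2 were not well above background.

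Other caspases stayed near 0, with a median log2 ratio of 0.04 over 7 measured genes and a range from -0.13 to 0.40. The highest were Casp9, the initiator of the mitochondrial path of apoptosis, at 0.40 ± 0.04, and Casp6, an executioner caspase, at 0.23 ± 0.06.

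Ligands, receptors and inhibitors of the IL-1 family had a median log2 ratio of 0.24 over 10 measured genes, 6 above 0 and 4 below. Il33, an alarmin that starts type 2 responses, had 2564 and 2369 in FAF RNA, against 1192 and 1419 in Conv RNA, a log2 ratio of 0.92 ± 0.18. Il18bp, the secreted inhibitor of IL-18, had 226 and 225 in FAF RNA, against 368 and 385 in Conv RNA. Its log2 ratio was -0.74 ± 0.03 on the probe used and -0.54 on another. For Il33 both FAF values were above both Conv values, and for Il18bp below them. The substrates of caspase-1 were picked with their values in view: Il18 had a log2 ratio of 0.66 ± 0.04 and Il1b one of 0.44 ± 0.01.

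Regulators of inflammasomes and of membrane rupture had a median log2 ratio of -0.07 over 19 measured genes, 6 above 0 and 13 below. Ripk3, the kinase that drives necroptosis, had 1734 and 1706 in FAF RNA, against 3036 and 3597 in Conv RNA, a log2 ratio of -0.94 ± 0.13. Irgm1, an interferon-induced GTPase, had a log2 ratio of -0.78 ± 0.06. Mlkl, the pore former downstream of Ripk3, and Ninj1 were picked with their values in view. Mlkl had a log2 ratio of -0.77 ± 0.13, while Ninj1, which acts in plasma membrane rupture after pyroptosis, stood at -0.06 ± 0.06.

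Transcription factors of the interferon, STAT and NF-κB families had a median log2 ratio of -0.20 over 12 measured genes. Irf8, a factor of myeloid and lymphoid cells, had a log2 ratio of -0.55 ± 0.12 on the probe used and -0.40 on another. Stat6, the factor that acts downstream of IL-4 and IL-13, was likewise picked after seeing its value. It stood at 0.29 ± 0.19 on the probe used and from -0.02 to 0.06 on others.

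Genes of the type 2 response in intestine had a median log2 ratio of -0.22 over 15 measured genes, 10 below 0 and 5 above. Ang4, an antimicrobial protein of Paneth and goblet cells, had 23895 and 21887 in FAF RNA, against 41927 and 43446 in Conv RNA, a log2 ratio of -0.90 ± 0.09. Retnla, a resistin-like protein induced by IL-4 and IL-13, was at least 1.73-fold lower in FAF RNA on the probe used, where it was not well above background. Its other measured probe had a log2 ratio of -0.54, a smaller difference, so the probes disagree on the size. Such a bound compares the brighter diet with the higher of the lowest signal well above background and the dim signal itself.

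**Figure D4:**
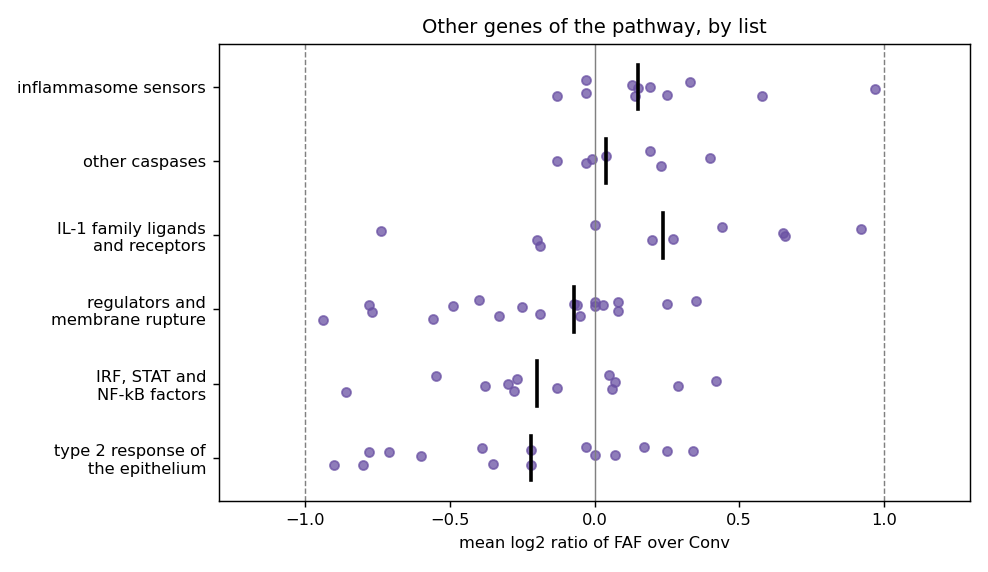
Mean log2 ratio of FAF over Conv of each measured gene in 6 lists of related genes (points), with a bar at the list's median and dashed lines at 2-fold. No point reaches a dashed line, Naip5 being the nearest on the higher side at 0.97 and Ripk3 on the lower side at -0.94, and the medians run from -0.22 to 0.24.

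The lower ratio of the gasdermin C genes was not shared by the measured neighbours, which all lay at higher mm9 coordinates. Within 1000 kb on either side of their probes, which span 81.7 kb, lay 15 other probes, of which 9 were measured. The measured ones lay from 153 to 923 kb from the Gsdmc probe. Their log2 ratios ran from -0.09 to 0.30 and none passed the rule of size. The probes at lower coordinates, at -632, -362 and -40 kb, were not well above background, so nothing is known of that side. The nearest measured neighbour, Cyrib, a regulator of the actin cytoskeleton, had 4 probes at -0.09, 0.06, 0.01 and 0.08. Farther out, Asap1, which acts on ARF GTPases, had 0.23 ± 0.00, and Adcy8, an adenylyl cyclase, 0.11 ± 0.06. A transcript with no gene name had the highest ratio at 0.30 ± 0.05. The 3 probes of noncoding or pseudogene transcripts in or beside the cluster, Gsdmcl1, Gsdmcl-ps and 1700065I16Rik, were not well above background.

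**Figure D5:**
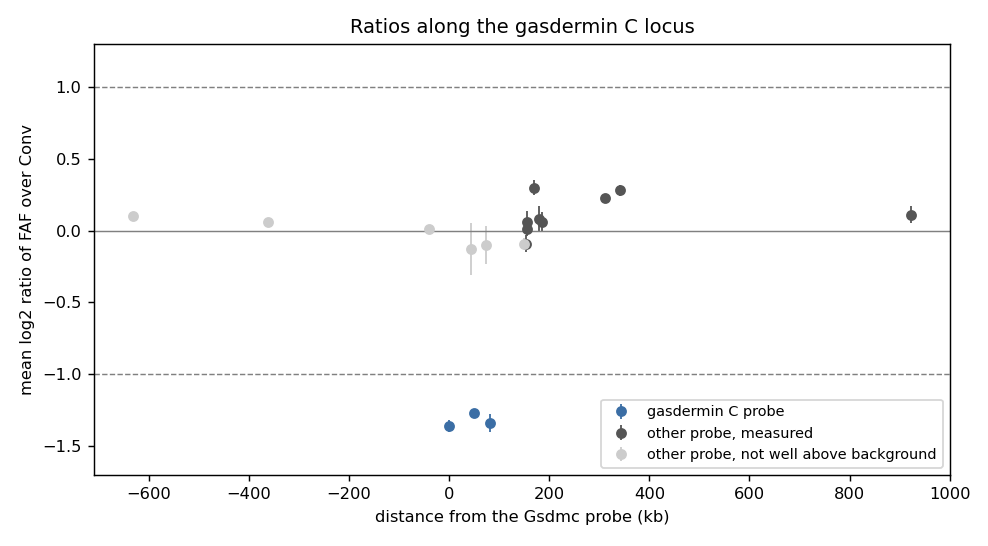
Mean log2 ratio of FAF over Conv against the distance in kb from the Gsdmc probe along the chromosome, for gasdermin C probes (blue), other measured probes (dark grey) and probes not well above background (light grey), with bars for the distance of either array from the mean and dashed lines at 2-fold. The gasdermin C probes at -1.36, -1.27 and -1.34 lie below all measured neighbours. These neighbours lie only at higher coordinates and run from -0.09 to 0.30.

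Promoter windows of 300 bases, from 250 before to 50 after the gene start, were matched in RefSeq (GRCm38.p6) for 5 of the genes: Gsdmc3, Casp1, Casp4, Pycard and Nlrp6. The Gsdmc3 window, at chr15:63878509-63878808 on the minus strand of GRCm38.p6, is printed as the one gasdermin C promoter in that table, with its match to the TATA box consensus in capitals.
Gsdmc3 promoter: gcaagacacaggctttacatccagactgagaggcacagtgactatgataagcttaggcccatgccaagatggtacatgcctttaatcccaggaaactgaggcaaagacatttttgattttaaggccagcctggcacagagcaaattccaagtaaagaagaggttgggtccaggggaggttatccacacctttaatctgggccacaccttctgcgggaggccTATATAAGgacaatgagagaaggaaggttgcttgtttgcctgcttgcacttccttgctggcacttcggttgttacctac
The consensus searched on the gene's strand was TATA, then A or T, then AA, then A or G, a search added after the sequence had been read. The match begins 29 bases before the gene start, and 3.42% of all 32851 windows hold one. The other members' windows held none. Letters of factor sites were searched on both strands: TTCNNNGAA, bound by STAT factors, TTCNNNNGAA, the spacing preferred by STAT6, and GAAANNGAAA, bound by interferon regulatory factors. None of the members' windows held a match, while 8.3%, 7.0% and 3.4% of all windows did, in that order. No match says only that these letters are not in these windows.

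Over the whole arrays, ratios of the measured genes correlated between the arrays with a Pearson coefficient of 0.90 across genes, and the median distance of either array from a gene's mean was 0.06. Without turning the dye-swapped array, 0 genes passed the rule of size. Markers of other cell types differed between the diets, and their part in the members' ratios was not tested. Of macrophage and monocyte markers 12 of 12 were measured, 7 with ratios above 0 and 5 below, with a median of 0.23. One was past the rule, Cd14 at -1.08 ± 0.06. Csf1r stood at 0.61 ± 0.04 on the probe used and from 0.13 to 0.50 on others. The sum of the macrophage and monocyte markers ran from 43979 to 45283 in FAF RNA and from 50949 to 53274 in Conv RNA. Most of that sum was Lyz2, with 39159 and 38316 in FAF RNA, against 46092 and 48445 in Conv RNA. Of T cell markers 10 of 10 were measured, 2 with ratios above 0 and 8 below, with a median of -0.29. In the lower direction 2 were past the rule, Cd8b1 at -1.33 ± 0.08 and Cd5 at -1.05 ± 0.01. The sum of the T cell markers ran from 3981 to 4103 in FAF RNA and from 4595 to 4825 in Conv RNA. Its largest part was Ptprc, picked with its values in view. Ptprc went the other way, at 0.33 ± 0.11 on the probe used and from -0.02 to 0.23 on others. Of fat tissue markers 8 of 9 were measured, 1 with a ratio above 0 and 7 below, with a median of -1.20. In the lower direction 5 were past the rule, led by Cfd at -2.72 ± 0.02 and Adipoq at -2.08 ± 0.00. Pparg, picked with its values in view, was the one above 0, at 0.46 ± 0.08. The sum of the fat tissue markers ran from 10062 to 10852 in FAF RNA and from 17949 to 18258 in Conv RNA. Most of that sum was Fabp4, picked in the same way, with 7489 and 8288 in FAF RNA, against 10644 and 9987 in Conv RNA. Of stomach markers 5 of 9 were measured, 4 with ratios above 0 and 1 below, with a median of 0.99 and a range from -0.18 to 1.41. In the higher direction 2 were past the rule, Gkn2 at least 2.5-fold and Tff1 at least 2.44-fold. Both were dim, and in Conv RNA they were not well above background. The sum of the stomach markers ran from 990 to 1106 in FAF RNA and from 552 to 614 in Conv RNA. Of neutrophil markers 2 of 8 were measured, S100a9 at -0.24 ± 0.00 and Retnlg at 0.67 ± 0.04, with sums from 305 to 307 in FAF RNA and from 249 to 255 in Conv RNA, while S100a8, Cxcr2, Mpo, Elane, Ngp and Camp were not well above background.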

How the data were processed

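Fluorescence intensities of each dye were deposited by the authors as scanner output, with positions on mm9. Per the file headers the software was Agilent Feature Extraction 11.5.1.1. The deposited log10 ratio of Cy5 over Cy3 and the on/off flags for background, saturation and outliers come from the same software. The deposited value table equals that log10 ratio within 5e-08 and is not turned for the dye swap. Which diet carried which dye was taken from the labels.

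Mean signals were corrected against local median background with limma 3.58.1 (R 4.3.3; normexp, offset 50), then normalised within arrays by loess with control spots at weight 0. Control and outlier spots were left out, spots of a probe averaged, and each array turned to FAF over Conv on the log2 scale. Per-channel intensities were also scaled between arrays (Aquantile). A probe counted as measured when well above background in at least 1 diet's channel on both arrays, and a gene was read by its brightest measured probe. The number of arrays (2), with 1 RNA sample per diet, limits the precision. Both arrays lie on one slide and scan.

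Genes were named by RefSeq accession for 27668 probes, and 13506 kept the file's name. The members and lists were chosen with earlier results of these data known. Every member was named, from each list the genes past the rule of size or else the 2 of largest ratio, and measured neighbours; exceptions are marked as picked with their values in view. Alternatives were background correction, normalisation, the software's ratios, the filter on dim probes, the fold limit, the mean over probes and single arrays. Protein sequences were not used here, and some values are not reported here.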

Additional observations from a re-analysis of the deposited data

How the results depend on the processing

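The ratios of the 12 member probes kept their sign under all 9 alternatives tried for each. Of 108 such values, 90 moved by less than the SD of the pair of arrays and 18 moved farther. Part of the 90 was fixed in advance. The filters on dim probes cannot change a probe's ratio, and a single array always lies within that SD of the mean. The software's ratios and the deposited value table hold the same values but count as separate alternatives. The widest ranges were those of Gsdma probe 2, from 0.26 to 0.84, and Gsdmc2, from -1.57 to -1.22. Gsdmc ran from -1.49 to -1.31, Gsdmc3 from -1.46 to -1.28, Gsdmd from 0.48 to 0.55, Casp1 from 0.27 to 0.42, Casp4 from -0.63 to -0.42 and Pycard probe 1 from -1.04 to -0.87. Gsdmc, Gsdmc2 and Gsdmc3 passed the rule of size in the lower direction under each alternative except a mean of at least 4-fold, which left 0 members. A mean of at least 1.5-fold gave 4, with Pycard added, and single arrays gave 3 to 4, Pycard being the addition where FAF carried Cy5. No member passed in the higher direction under any of them.

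Counts over all genes, 263 higher and 151 lower in FAF RNA, moved more. They were 487 and 350 with the software's own ratios and with the deposited value table, 183 and 82 with median centring in place of loess, 775 and 616 with a mean of at least 1.5-fold, and 31 and 18 with a mean of at least 4-fold. The cause was not tested for the software's ratios and for median centring, while the other changes follow from the changed limit itself. No paired analysis was possible because both arrays hold the same 1 RNA sample of each diet.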

Other observations

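Probes within 100 kb of the other members were read after their values were seen, and none passed the rule of size at any locus. Beside Casp1 and Casp4, the one other measured probe read Casp12, a caspase of the same cluster, at a log2 ratio of FAF over Conv of -0.03 ± 0.04. Around Gsdmd, 12 measured probes ran from -0.35 ± 0.10 for Eef1d, a translation elongation factor, to 0.96 ± 0.01 for a transcript with no gene name. Around Pycard, the highest of 8 was Vkorc1, an enzyme of the vitamin K cycle, at 0.38 ± 0.03. Around Nlrp6, 16 ran from -0.67 ± 0.09 for Cox8b, a cytochrome oxidase subunit, to 0.59 ± 0.15 for Sirt3, a mitochondrial deacetylase. Around Gsdma, 8 ran from -0.43 ± 0.10 for Psmd3, a proteasome subunit, to 0.49 ± 0.15 for Ormdl3, a regulator of sphingolipid synthesis.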
